A study of Mus musculus with 6 samples.

Results

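The genes described here encode the acetylcholine receptor of muscle and the postsynaptic machinery that holds it under the motor nerve ending. They are the receptor subunit genes Chrna1, Chrnb1, Chrnd and Chrne, the scaffold and signalling genes Musk, Rapsn, Dok7 and Lrp4, and the synaptic enzyme genes Colq and Ache. The members were chosen by name, with earlier results of these data known. All 10 were found by symbol among the 17034 genes with values in the deposited table. RNA came from the gastrocnemius, a mixed calf muscle, of male mice aged 8 weeks. Mice labelled TRa_mKO carried Thra fl/fl, both copies floxed at the thyroid hormone receptor alpha gene, and in addition the transgene Myf5-Cre. The littermates labelled WT were Thra fl/fl without Cre, so that floxed alleles were common to both groups and 3 libraries represented each genotype. Cre under Myf5 control acts in the myogenic lineage from the embryo onward, so the receptor had been targeted in the muscle lineage through development as well as in the adult.

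At the neuromuscular junction, acetylcholine released by the motor neuron opens a pentameric receptor channel in the muscle membrane. Agrin from the nerve binds LRP4, which activates the kinase MuSK. MuSK, with its adaptor DOK7, drives the clustering of receptors by the scaffold protein rapsyn, and acetylcholinesterase tethered by the collagen tail ColQ ends the signal. In adult muscle these genes are transcribed mainly by the few nuclei beneath the synapse. Transcription of receptor subunits along the whole fibre is a feature of fetal muscle and of muscle that has lost its nerve, and the epsilon subunit replaces the fetal gamma subunit after birth.

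The promoters of receptor subunit genes are known for E-boxes, which bind myogenic factors, and for the N-box, an ETS-factor element of synaptic transcription. RefSeq promoter windows (GRCm38.p6, from 250 bases before to 50 bases after the start) matched 6 of the 10 members, and 4 motifs were searched on both strands: the E-box forms CAGCTG and CAGGTG, the N-box CCGGAA and the nuclear receptor half-site AGGTCA. The upstream stretches of 2 subunit genes that rose, 1 subunit gene that did not pass the test and 1 scaffold gene are shown here because they carry most of the matches, which stand in capitals. Each is written 5′ to 3′ on the gene's own strand.
Chrna1, chr2:73580361-73580488, minus strand: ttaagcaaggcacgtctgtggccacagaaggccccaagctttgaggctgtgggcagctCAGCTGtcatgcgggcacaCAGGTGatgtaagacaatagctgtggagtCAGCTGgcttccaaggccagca
Chrne, chr11:70619217-70619344, minus strand: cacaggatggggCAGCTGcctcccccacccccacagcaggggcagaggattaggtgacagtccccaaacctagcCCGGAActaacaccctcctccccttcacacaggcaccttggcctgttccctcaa
Chrnb1, chr11:69795960-69796067, minus strand: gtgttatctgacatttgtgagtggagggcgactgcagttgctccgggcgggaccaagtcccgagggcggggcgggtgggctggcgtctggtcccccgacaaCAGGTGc
Musk, chr4:58285812-58285939, plus strand: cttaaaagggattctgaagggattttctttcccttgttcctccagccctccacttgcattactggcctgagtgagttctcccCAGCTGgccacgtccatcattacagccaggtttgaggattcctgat
E-boxes of other sequence were not searched, and the counts here cover these 2 forms alone. The Chrna1 stretch held 3 such E-boxes, which began 92, 73 and 44 bases upstream of the start. That of Chrne held 1 match to CAGCTG (138 bases upstream) and 1 N-box (76 bases upstream), that of Chrnb1 1 match to CAGGTG (29 bases upstream) and that of Musk 1 match to CAGCTG (68 bases upstream). Over the whole windows, CAGCTG was present in 3 of the 6 members (Chrna1, Chrne and Musk), CAGGTG in 2 (Chrna1 and Chrnb1), CCGGAA in 1 (Chrne) and AGGTCA in 1 (Dok7, at a second listed start). In all 32851 windows of 300 bases, the motifs occurred in 16.3%, 20.2%, 14.9% and 16.3%, in the same order. A match describes the letters of a window and is neither a binding site nor a cause of any value given here.

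Library totals lay between 12390527 and 14488500 counts, and levels are given as CPM, counts scaled to library size and corrected by the trimmed mean of M-values. Muscle fibre markers were abundant, with 8 marker transcripts summing to 118430 to 153389 CPM among WT libraries and 144376 to 164922 CPM among those labelled TRa_mKO. Of these 8, 7 had positive log2 fold changes (median 0.23), against 6554 positive among all 13118 genes tested. For 4 of the 8, every library labelled TRa_mKO lay above every WT library, which held for 13.2% of all genes tested. None of the 8 was called by edgeR (0, with 3 higher at an unadjusted p under 0.05) or limma-voom (0), and DESeq2 called 3 higher. Thra itself measured 78.8, 92.8 and 96.8 CPM among WT libraries and 129, 118 and 101 CPM among those labelled TRa_mKO (adjusted p = 0.117). The exons lost from the floxed allele are not stated in the labels, and a whole-gene count is thus no check of deletion or label, and each direction below depends on the labels being right. Of 13118 genes tested, 331 were higher (2.52%) and 216 lower (1.65%) in the libraries labelled TRa_mKO, 4.17% together. With library sizes alone the split was 213 higher and 255 lower.

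The comparison asks how junction genes in WT muscle compare with those in muscle labelled TRa_mKO, and whether receptor subunits and the other members differ alike. In the libraries labelled TRa_mKO, 5 of the 10 members rose and 0 fell: the receptor subunits Chrna1, Chrnd and Chrne and both synaptic enzyme genes, by 1.40-fold to 2.52-fold. The subunit gene Chrnb1 and the 4 scaffold and signalling genes did not pass the test, and their log2 fold changes lay between -0.17 and 0.28. For 5 of the 10 members, the same 5 that rose, every library labelled TRa_mKO lay above every WT library, and 0 were apart in the other direction. Over all genes tested, 13.2% were apart upward, 10.1% in the other direction and 23.2% in either. Genes called on these libraries tend to be apart in them, so this adds no separate evidence for the 5 calls. All 10 members passed the low-count filter, and each had whole-number counts in every library. Over all genes tested, 2.52% were called higher, 1.65% lower and 4.17% in either direction, and for the fallers 0 members had an unadjusted p under 0.05, and DESeq2 and limma-voom called 0 and 0 members lower. The median log2 fold change was 0.95 for the 4 receptor subunits, 0.16 for the 6 scaffold and enzyme genes and 0.00 for all genes tested. Fewer cells or nuclei of a type and less RNA per cell cannot be told apart in whole muscle, and the same holds for more.

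**Figure D1:**
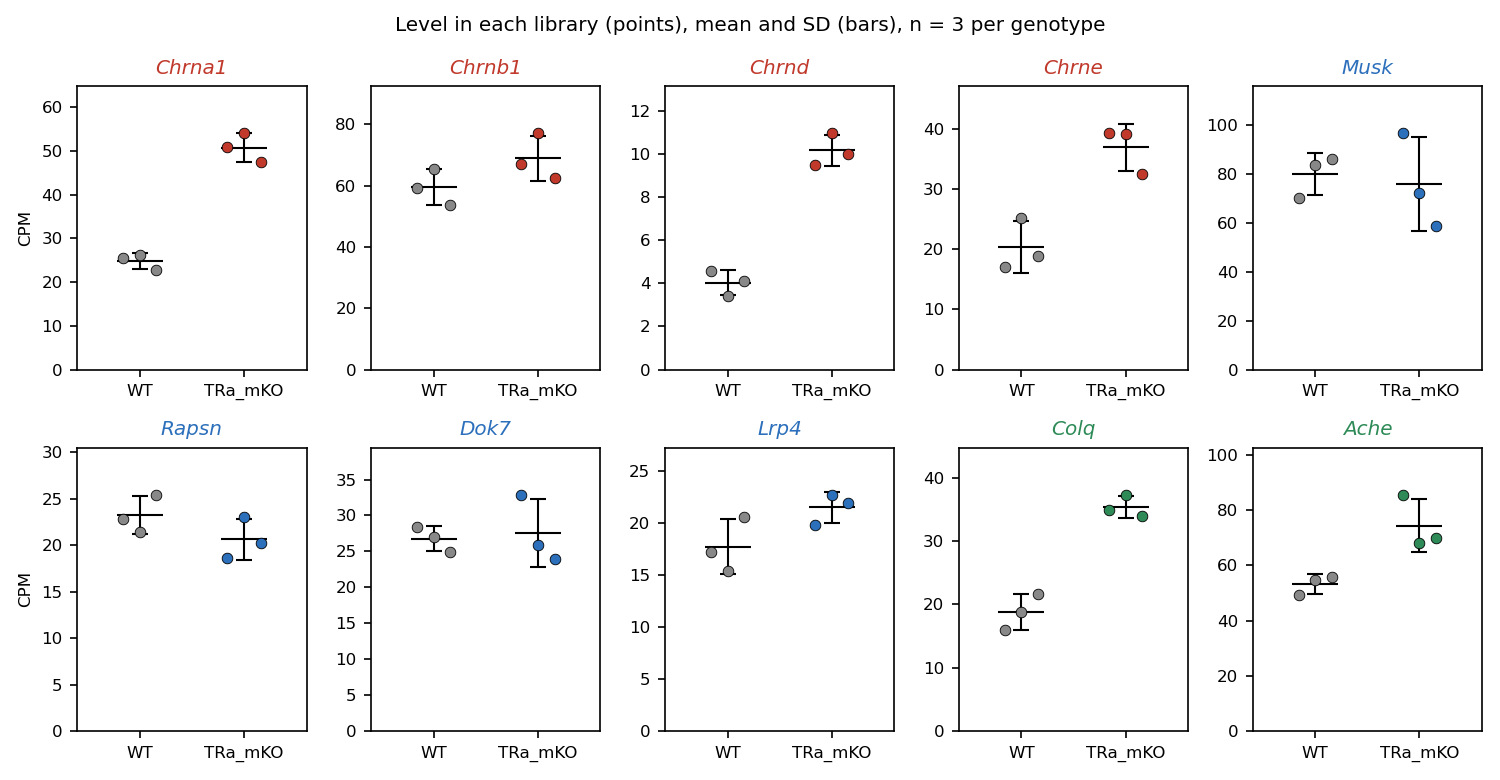
Level of each member in every library (y axis, CPM from 0), with grey points for WT and coloured points for the libraries labelled TRa_mKO, and bars for the mean and SD of 3 libraries. The genotypes stand apart for Chrna1, Chrnd, Chrne, Colq and Ache and overlap for Chrnb1, Musk, Rapsn, Dok7 and Lrp4.

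Chrna1 (gene ID 11435) encodes the alpha subunit, which carries the acetylcholine binding sites and is present in a pair in each receptor. It measured 25.6, 26.3 and 22.7 CPM among WT libraries and 50.8, 54.1 and 47.5 CPM among those labelled TRa_mKO. The genotypes were far apart, and the coefficient of variation within a genotype was 7.59% in WT and 6.5% in TRa_mKO. The rise was 2.04-fold (log2 fold change 1.03, SE 0.09, 95% confidence interval 0.83 to 1.23, adjusted p = 0.000446), and it passed the test in each of 17 alternative analyses.

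Chrnd (gene ID 11447) encodes the delta subunit, shared by the fetal and adult receptor. Its level was low, at 4.57, 3.41 and 4.09 CPM in WT, which are 61, 44 and 62 counts, and at 9.52, 11.0 and 10.0 CPM (130, 136 and 145 counts) among the libraries labelled TRa_mKO. Every library labelled TRa_mKO exceeded the highest WT library by more than the whole WT range. Its fold change was the largest among the members, at 2.52-fold (log2 fold change 1.33, SE 0.16, 95% confidence interval 0.99 to 1.68, adjusted p = 0.00162).

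Chrne (gene ID 11448) encodes the epsilon subunit, which marks the adult receptor and is known for its restriction to synaptic nuclei. WT libraries held 17.0, 25.2 and 18.8 CPM and the libraries labelled TRa_mKO 39.2, 39.1 and 32.5 CPM. The groups did not overlap, although WT replicate 2 stood above the other WT libraries. The rise was 1.82-fold (log2 fold change 0.86, SE 0.15, 95% confidence interval 0.54 to 1.19, adjusted p = 0.0109). The call ended without WT replicate 3 (adjusted p = 0.0561) and without TRa_mKO replicate 2 (0.0595).

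Chrnb1 (gene ID 11443), the gene of the beta subunit to which rapsyn binds, is the remaining subunit gene and the highest of the 4 in level per length. It measured 59.2, 65.4 and 53.7 CPM among WT libraries and 67.1, 77.1 and 62.6 CPM among those labelled TRa_mKO. The ranges overlapped, since WT replicate 2 exceeded TRa_mKO replicate 3. The log2 fold change of 0.21 (SE 0.11, adjusted p = 0.332) had a 95% confidence interval of -0.02 to 0.45, which reaches no further than a 1.37-fold increase.

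The fetal gamma subunit gene Chrng (gene ID 11449), the neighbour of Chrnd on chromosome 1, is not among the members but completes the receptor. It gave 3, 1 and 0 counts among WT libraries and 7, 6 and 14 counts among those labelled TRa_mKO, too few to pass the low-count filter. A count of 0 in WT replicate 3 allows a level of up to 0.198 CPM. Without the filter the log2 fold change was 2.66 and did not pass (adjusted p = 0.0701). In the libraries labelled TRa_mKO, Chrng stood at 0.236 ± 0.0978 CPM per kilobase of transcript, against 22.8 ± 2.39 for Chrne (SD, n = 3), so that the adult subunit transcript stayed by far the more abundant.

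Ratios between counts of members within a library do not depend on how libraries are scaled, and 5 such ratios, chosen after the values were seen, were compared. The ratio of Chrna1 to Chrnb1 counts was 0.432, 0.402 and 0.423 in WT and 0.758, 0.702 and 0.759 in the libraries labelled TRa_mKO, a 1.76-fold difference. The ratio of Chrnd to Chrnb1 differed 2.19-fold and that of Chrne to Chrnb1 1.58-fold. All 3 ratios were higher in every library labelled TRa_mKO than in every WT library. Each sets a member that rose over one that did not pass the test. The share of other gene pairs whose ratios are apart was not computed. An exact two-sided permutation test gave p = 0.10 for each of the 5 ratios (0.10 after Benjamini-Hochberg adjustment), which is the smallest p that 3 libraries against 3 can give and cannot pass 0.05.

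**Figure D2:**
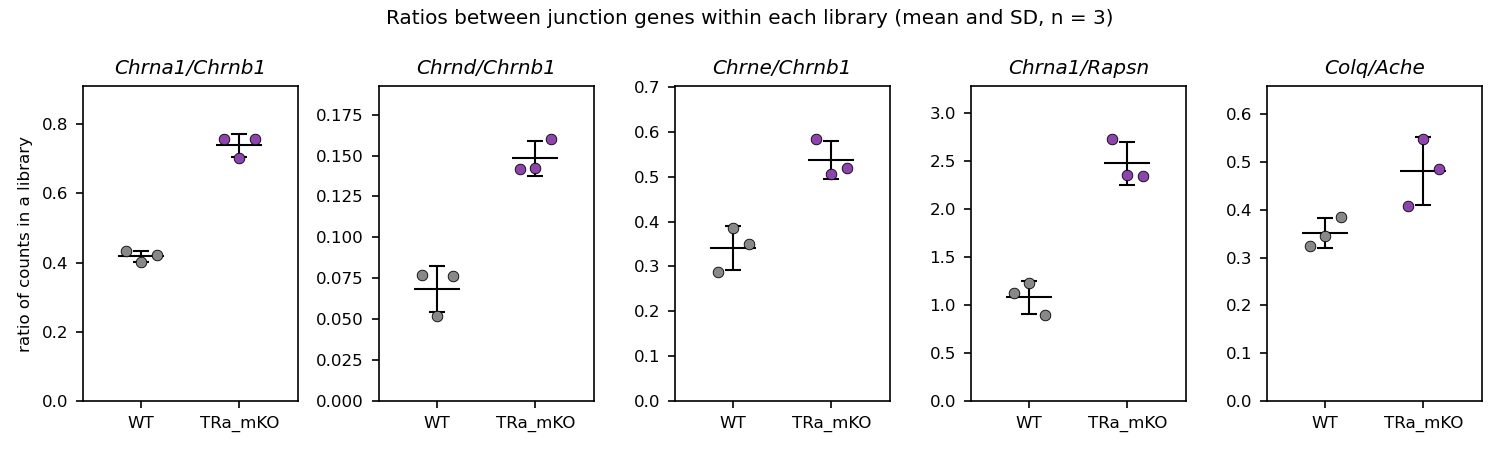
Ratio of the counts of a pair of members in each library (y axis, from 0), with grey points for WT, purple points for the libraries labelled TRa_mKO, and bars for the mean and SD of 3 libraries. For Chrna1 over Chrnb1 the mean was 0.419 in WT and 0.739 in the libraries labelled TRa_mKO, and the groups are apart for all 5 ratios. The pairs were chosen after the values were seen, and the share of other gene pairs that are apart was not computed.

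None of the 4 scaffold and signalling genes passed the test in either direction (1 had an unadjusted p under 0.05, and 0 were called by DESeq2 or limma-voom). Rapsn (gene ID 19400), the gene of the protein that clusters receptors, measured 22.8, 21.4 and 25.4 CPM among WT libraries and 18.6, 23 and 20.3 CPM among those labelled TRa_mKO. The ranges overlapped, with a log2 fold change of -0.17 (SE 0.11, adjusted p = 0.457) and a 95% confidence interval of -0.42 to 0.07. The ratio of Chrna1 to Rapsn counts rose from 1.08 ± 0.171 to 2.47 ± 0.223 (SD, n = 3), a 2.30-fold difference with no overlap between the genotypes.

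Musk (gene ID 18198), the gene of the receptor kinase that organises the postsynaptic membrane, measured 70.1, 83.6 and 86.2 CPM among WT libraries and 96.7, 72.2 and 58.7 CPM among those labelled TRa_mKO. The latter held both the highest and the lowest of the 6 values, and their coefficient of variation, 25.4%, was the widest of the members. The log2 fold change of -0.08 (SE 0.17, adjusted p = 0.875) left a 95% confidence interval of -0.47 to 0.31, or a change of -27.7% to 24.4% from the WT level. The log2 fold change turned to 0.080 without TRa_mKO replicate 3.

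Dok7 (gene ID 231134), whose product binds and activates MuSK from inside the cell, stood at 28.4, 27.0 and 24.9 CPM among WT libraries and 32.9, 25.9 and 23.9 CPM among those labelled TRa_mKO. The order of the 3 libraries labelled TRa_mKO was the same as for Musk, with replicate 1 highest and replicate 3 lowest. The log2 fold change was 0.04 (95% confidence interval -0.23 to 0.32, adjusted p = 0.903) and became -0.10 without TRa_mKO replicate 1. It was also below 0, at -0.0072 without WT replicate 3 and -0.012 with library sizes alone.

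Lrp4 (gene ID 228357), the agrin receptor gene, came nearest to the threshold among these genes. Its levels were 17.2, 15.4 and 20.6 CPM among WT libraries and 19.8, 22.8 and 22.0 CPM among those labelled TRa_mKO. WT replicate 3 lay above TRa_mKO replicate 1, and the difference, a log2 fold change of 0.28 (SE 0.12), did not pass after adjustment over all genes (adjusted p = 0.270). Its 95% confidence interval was 0.01 to 0.55.

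Both genes of the enzyme that breaks down acetylcholine in the cleft rose. Colq (gene ID 382864), the gene of the collagen tail that anchors the enzyme in the synaptic basal lamina, measured 15.9, 18.8 and 21.6 CPM among WT libraries and 34.9, 37.3 and 33.9 CPM among those labelled TRa_mKO. The genotypes were well apart, and the rise was 1.88-fold (log2 fold change 0.91, SE 0.12, 95% confidence interval 0.65 to 1.17, adjusted p = 0.00267). In the GENCODE annotation of GRCm38, Colq shares 199 exonic bases with the same-strand gene model Gm49387, although its counts in these libraries were whole numbers.

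Ache (gene ID 11423), which encodes acetylcholinesterase itself, measured 49.2, 54.6 and 56.0 CPM among WT libraries and 85.6, 67.9 and 69.8 CPM among those labelled TRa_mKO. The groups did not overlap, and replicate 1 was the highest of the libraries labelled TRa_mKO, as for Musk and Dok7. The rise was the smallest of the called members, at 1.40-fold (log2 fold change 0.48, SE 0.11, 95% confidence interval 0.25 to 0.72, adjusted p = 0.0351). Leaving out any library except TRa_mKO replicate 3 ended the call (adjusted p = 0.0519 to 0.121), as did leaving out the library richest in haemoglobin in each genotype (0.136). An antisense transcript, Gm42456, shares 98 exonic bases with Ache in the same annotation, and reads from opposite strands can be told apart only if the counting used strand, on which the sources used here say nothing. The ratio of Colq to Ache counts was 0.351 ± 0.0313 in WT and 0.481 ± 0.0709 in the libraries labelled TRa_mKO, a 1.36-fold difference without overlap.

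**Figure D3:**
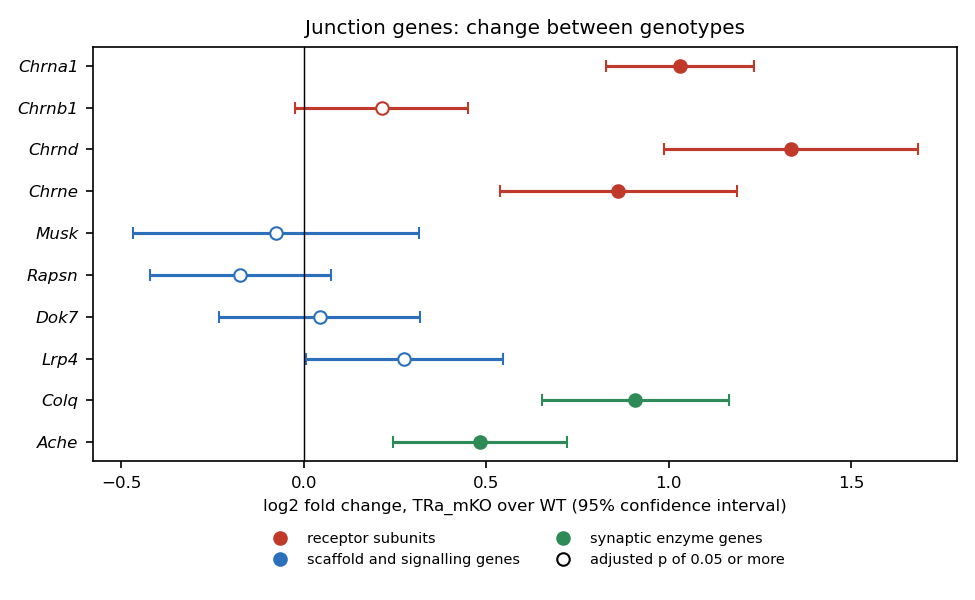
Log2 fold change of each member, TRa_mKO over WT (x axis), with 95% confidence intervals, coloured by role, and filled where the adjusted p was below 0.05. Chrna1, Chrnd, Chrne and Colq lie between 0.86 and 1.33, Ache at 0.48, and the intervals of Chrnb1, Musk, Rapsn and Dok7 include 0.

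The order of the transcript levels also differed between the genotypes. Per kilobase of the longest coding transcript, the highest levels in WT were those of Chrnb1 (27.6 ± 2.72 CPM per kilobase), Ache (24.4 ± 1.65) and Musk (23.4 ± 2.53), whose libraries overlapped (SD, n = 3). Rapsn (14.5 ± 1.27) and Chrne (12.6 ± 2.66) overlapped in turn, followed by Dok7 (9.63 ± 0.632), then by Colq (6.55 ± 0.985) and Chrna1 (5.67 ± 0.430), which overlapped, and by Lrp4 (2.24 ± 0.332) and Chrnd (1.36 ± 0.197). In the libraries labelled TRa_mKO, Ache (34.1 ± 4.44) and Chrnb1 (32.0 ± 3.45) overlapped at the top and Chrne (22.8 ± 2.39) overlapped with Musk (22.2 ± 5.64). Rapsn (12.8 ± 1.38), Colq (12.3 ± 0.608), Chrna1 (11.6 ± 0.753) and Dok7 (9.92 ± 1.69) each overlapped with the next, and Chrnd (3.45 ± 0.250) came above Lrp4 (2.72 ± 0.191). Chrna1 and Colq lay below Dok7 in WT and above it, by mean, in the libraries labelled TRa_mKO.

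Among 11714 genes whose log2 CPM averaged at least 1 over the 6 libraries, the profiles most like that of Chrna1 by Pearson's r of log2 CPM were those of Mccc1 (r = 0.9989), P4htm (0.9980), Mllt10 (0.9962), Pnck (0.9948) and Gstz1 (0.9946). Mccc1 encodes a subunit of methylcrotonyl-CoA carboxylase and Gstz1 an enzyme of tyrosine breakdown. These values rest on 6 libraries that share the contrast of genotype.

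Other genes of the junction were read from lists. Beside the counts of each list, 2.52% of all genes tested were called higher and 1.65% lower. Of 20 genes of agrin, neuregulin and MuSK signalling, 19 were tested and 1 rose, Pak1, a kinase of the cytoskeleton (22.1 ± 3.05 to 45.0 ± 3.51 CPM, 2.03-fold, adjusted p = 0.00119). No member of that list was called lower (edgeR), and 0 were called lower by DESeq2 and limma-voom. At an unadjusted p under 0.05, 1 was lower, Ptpn11 (86.2 ± 3.25 and 69.2 ± 5.74 CPM, adjusted p = 0.087). The median log2 fold change of the list was -0.04. Agrn, the agrin gene, which muscle also transcribes, measured 62.5 ± 6.02 and 72.8 ± 8.11 CPM (adjusted p = 0.316), and Erbb2 and Erbb3, neuregulin receptor genes, had adjusted p of 0.960 and 0.569.

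Of 22 genes of the synaptic basal lamina and postsynaptic membrane, 2 rose and 1 fell, with a median log2 fold change of -0.01. Col4a5, a basement membrane collagen chain, rose from 10.4 ± 1.83 to 17.3 ± 1.82 CPM (1.67-fold, adjusted p = 0.0211), and Dmd, the dystrophin gene, from 102 ± 4.46 to 136 ± 9.46 CPM (1.33-fold, adjusted p = 0.0346). Sntb1, the gene of a syntrophin of the dystrophin complex, fell from 16.6 ± 1.89 to 10.4 ± 0.913 CPM (adjusted p = 0.0175). Utrn, the gene of the synaptic dystrophin relative utrophin, measured 96.4 ± 10.1 and 80.1 ± 13.3 CPM (adjusted p = 0.321), and Scn4a, the muscle sodium channel gene, 425 ± 27.6 and 468 ± 66.7 CPM (adjusted p = 0.618). The 3 calls depended on which library was left out. Col4a5 lost its call in each fit without a replicate 2 or 3 of either genotype (adjusted p = 0.0613 to 0.083), Dmd passed only without TRa_mKO replicate 3 among the 6 fits that leave out a library (0.0566 to 0.17 in the others), and Sntb1 did not pass without WT replicate 3 (0.0686) or TRa_mKO replicate 2 (0.083). With library sizes alone Dmd did not pass (0.091). With a block for the replicate number, neither Dmd (0.11) nor Col4a5 (0.0538) passed. Sntb1 passed in both (0.0222 and 0.0305).

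In the list of synaptic and denervation transcription, 3 of 14 genes rose and 0 fell, with a median log2 fold change of 0.11. At an unadjusted p under 0.05, 1 gene was lower, the myogenic factor gene Myod1. It measured 27.1, 29.7 and 21.9 CPM among WT libraries and 11.7, 17.8 and 19.3 CPM among those labelled TRa_mKO (adjusted p = 0.0856). DESeq2 and limma-voom called 1 and 0 genes of the list lower. Etv4 and Etv5, ETS-family factors of synaptic nuclei, rose 1.70-fold (6 ± 0.344 to 10.2 ± 0.293 CPM, adjusted p = 0.0103) and 1.35-fold (23.7 ± 2.16 to 31.9 ± 0.619 CPM, adjusted p = 0.0317). Hdac9, a deacetylase gene tied to muscle activity, rose 1.52-fold (adjusted p = 0.0221). Myog, the myogenin gene, which is raised after denervation, measured 7.93, 7.75 and 8.32 CPM among WT libraries and 8.64, 18 and 24.1 CPM among those labelled TRa_mKO, with an adjusted p of 0.155. The Myog value of TRa_mKO replicate 1 lay just above the WT range. Whether Myog or Myod1 had a part in the receptor gene values was not tested. Gabpa, an ETS factor known to bind the N-box, measured 62.1 ± 2.60 and 61.2 ± 0.920 CPM (adjusted p = 0.927). Etv4 did not pass without TRa_mKO replicate 2 (adjusted p = 0.0501), Hdac9 not without WT replicates 1 or 2 or TRa_mKO replicate 2 (0.0737 to 0.0862), Etv5 passed only without WT replicate 1 among these 6 fits (0.0581 to 0.108 in the others), and both Etv5 and Hdac9 lost their calls with library sizes alone (0.111 and 0.0569). Etv5 also did not pass with a block for the replicate number (0.0681).

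Among reported markers of synaptic nuclei, 1 of 6 tested genes rose, Ufsp1, the neighbour of Ache on chromosome 5 (25.3 ± 4.80 to 39.7 ± 0.671 CPM, 1.57-fold, adjusted p = 0.0183). The call ended without WT replicate 1 (0.0607) and without TRa_mKO replicate 2 (0.0736). All 6 log2 fold changes were positive, with a median of 0.49, against 6554 positive among all 13118 genes tested. Of the 6, 0 were called lower (0 also at an unadjusted p under 0.05 and with DESeq2 or limma-voom). Ano4 measured 1.6 ± 0.374 and 2.85 ± 0.193 CPM (adjusted p = 0.0973) and Prkar1a, a regulatory subunit gene of protein kinase A, 317 ± 18.4 and 396 ± 25.9 CPM (adjusted p = 0.118).

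Of 7 extrasynaptic genes raised by denervation, 1 rose, the adhesion molecule gene Ncam1 (14 ± 0.353 to 21.3 ± 1.61 CPM, adjusted p = 0.00973). No other gene of the list was called by edgeR. At an unadjusted p under 0.05, 2 genes were higher, Ncam1 and the potassium channel gene Kcnn3 (2.03 ± 0.649 and 3.28 ± 0.611 CPM, adjusted p = 0.220), and 1 was lower, the growth factor receptor gene Fgfr1 (168 ± 16.8 and 122 ± 22.8 CPM, adjusted p = 0.101). The Fgfr1 libraries did not overlap, and 10.1% of all genes tested were apart in that direction. DESeq2 called 1 gene of the list lower, as did the edgeR fit without TRa_mKO replicate 2, and limma-voom 0. Runx1 measured 3.59 ± 0.586 and 3.51 ± 0.566 CPM (unadjusted p = 0.872) and Gadd45a 27.4 ± 6.69 and 28.7 ± 9.14 CPM. The median log2 fold change of the list was 0.11.

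Among other nicotinic receptor subunits, 3 of the 8 with values were tested and 0 were called by edgeR, 2 had an unadjusted p under 0.05, and DESeq2 and limma-voom made 1 and 0 calls. Chrna9, a subunit gene best known from hair cells, measured 0.524, 0.387 and 0.198 CPM among WT libraries and 3.00, 7.50 and 1.04 CPM among those labelled TRa_mKO (adjusted p = 0.0847). Chrna2 lay between 0 and 0.599 CPM among WT libraries and between 0.952 and 1.29 CPM among those labelled TRa_mKO (adjusted p = 0.120). Both sets of values are apart between the genotypes, as were 13.2% of all genes tested in this direction. Chrna10, the remaining tested gene and the most abundant of them, went the other way. It measured 21.3 ± 3.67 and 16.7 ± 5.30 CPM (log2 fold change -0.36, adjusted p = 0.462). Chrna9 in TRa_mKO replicate 2 lay above the level of Chrnd in any WT library and below that of Chrnd in the same library (11.0 CPM). Neither of the other anchors and hydrolases of acetylcholine, Bche and Prima1, was called (2 tested, 0 calls by edgeR, DESeq2 or limma-voom, and 0 with an unadjusted p under 0.05). Of 5 glycosylation genes whose loss causes congenital myasthenia, 0 were called by edgeR, DESeq2 or limma-voom, and 2 had an unadjusted p under 0.05, Dpagt1 (18.9 ± 1.59 and 22.3 ± 0.774 CPM) and Alg2 (42.7 ± 3.06 and 36.0 ± 3.94 CPM).

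**Figure D4:**
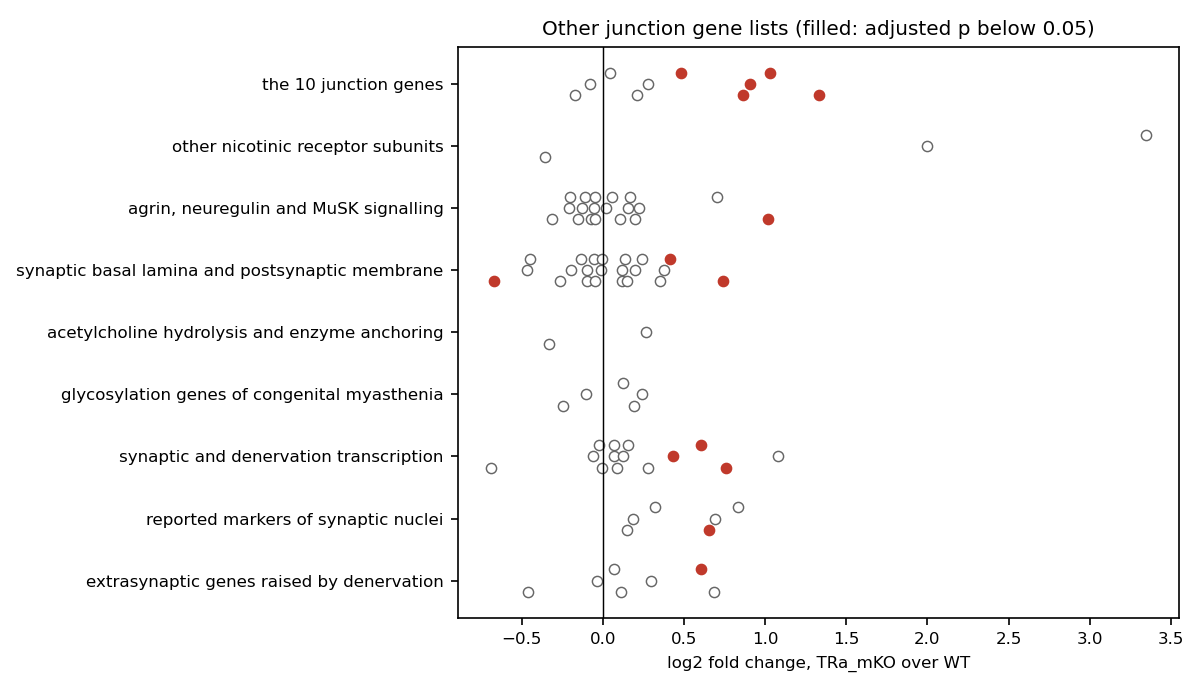
Log2 fold change, TRa_mKO over WT (x axis), of the 10 junction genes and of the tested genes of 8 related lists, 1 point per gene, spread vertically within a row only for legibility. Filled points passed the test at an adjusted p below 0.05; 5 do so among the 10 junction genes and between 0 and 3 in each other list.

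Markers of other cells at the junction were read in the same libraries. Of 9 motor nerve terminal and axon markers, 5 had values and 1 passed the low-count filter. The 5 summed to 1.32 to 2.24 CPM among WT libraries and 1.37 to 2.42 CPM among those labelled TRa_mKO. These markers were thus near 0 in both genotypes, too low to compare nerve endings between them. Schwann cell markers, all 10 with values, summed to 1348, 334 and 1296 CPM among WT libraries and 520, 610 and 706 CPM among those labelled TRa_mKO. WT replicate 2 was the lowest of the 6, and 0 of these markers were called by edgeR (2 lower at an unadjusted p under 0.05) and 0 by limma-voom, whereas DESeq2 called 1 lower. Without WT replicate 2, edgeR called 8 of the 10 lower in the libraries labelled TRa_mKO. Satellite cell markers, 4 of 4 with values, summed to 27.8 to 30.2 CPM among WT libraries and 36.2 to 40.5 CPM among those labelled TRa_mKO, and Pax7, the defining gene of those muscle stem cells, rose from 6.84 ± 0.850 to 10.8 ± 0.360 CPM (adjusted p = 0.0261). No satellite cell marker was called (0) without WT replicate 1, WT replicate 3, TRa_mKO replicate 2 or TRa_mKO replicate 3, with 2 or 3 higher at an unadjusted p under 0.05. Endothelial markers, 4 of 4 with values, summed to 800 to 966 CPM among WT libraries and 591 to 813 CPM among those labelled TRa_mKO. All 4 had negative log2 fold changes (median -0.34), 3 of them at an unadjusted p under 0.05, while edgeR and limma-voom called 0 and DESeq2 1. The part of fibre RNA, satellite cells, Schwann cells or endothelium in the junction gene results was not tested. Haemoglobin transcripts, a sign of blood in the sample, were highest in WT replicate 1 (1742 CPM) and TRa_mKO replicate 3 (1599 CPM), against 453 to 907 CPM in the other libraries. Without both of these libraries, 4 members rose, Chrna1, Chrnd, Chrne and Colq. Of the related lists, the signalling list then kept its 1 call (Pak1), the basal lamina and membrane list had 1 higher and 0 lower, and the lists of synaptic transcription, synaptic nuclei and denervation-raised genes had 0 calls (4, 3 and 2 genes at an unadjusted p under 0.05).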

How the data were processed

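Polyadenylated RNA was sequenced in 6 libraries, 3 per genotype, all given batch 1. Libraries were stranded by dUTP and read paired-end, per the labels' protocols. FastQC 0.11.9, MultiQC 1.12, Trimmomatic 0.39 and featureCounts are named, with builds mm10, GRCm38.p6 and GRCm39 in no stated role, per the submitters' processing notes. Which aligner, annotation and strand setting served is not given in the sources used here. Estimated counts per gene, not normalized, are what the authors deposited, and a library had 9.64% to 10% values with decimals, which were rounded. Of 74693 listed features, 17034 had values.

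Genes were filtered with filterByExpr (minimum count 10), scaled by TMM and tested in edgeR 4.0.16 (R 4.3.3) by the two-sided quasi-likelihood test with genotype as the single factor, at a Benjamini-Hochberg adjusted p below 0.05 over 13118 genes. On simulated counts for these genes, the step recovered 53.6% of genes changed 1.5-fold and 80% of those changed 2-fold, and 8.24% of its calls were false. Transcript lengths and overlaps came from GENCODE M21 and promoters from RefSeq.

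The members, lists and motifs were chosen with earlier results of these data known. Named were all members, Chrng, Thra, the list genes that passed or up to 4 per list with the smallest p, and the 5 genes most like Chrna1 (mean log2 CPM of at least 1, clone-like symbols skipped). Other list genes (Utrn, Scn4a, Gabpa, Myog, Myod1, Ptpn11, Ano4, Prkar1a, Runx1, Gadd45a, Kcnn3, Fgfr1, Agrn, Erbb2 and Erbb3) were named for their role or their p after their values were seen. Alternatives were DESeq2 1.42.0 (also its size factors in edgeR), limma-voom 3.58.1, library sizes alone, other filters, unrounded values, a fit less the 10 most abundant genes, a block for the replicate number, and fits less 1 library. Added after seeing the data were 2: fits less the haemoglobin-rich library of each genotype, and less genes with fractional counts.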

Additional observations from a re-analysis of the deposited data

How the results depend on the processing

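The calls of Chrna1, Chrnd and Colq, and the absence of a call for Chrnb1, Musk, Rapsn, Dok7 and Lrp4, held in each of 17 alternatives. Chrne lost its call in 2 of them and Ache in 7, so that 3 to 5 members were higher when a library was left out (3 without WT replicate 3 or TRa_mKO replicate 2) and 0 were lower throughout. Of values that crossed 0 (log2), Musk ran from -0.29 to 0.080 with a library left out (above 0 without TRa_mKO replicate 3) and Dok7 from -0.10 to 0.14 (below 0 without TRa_mKO replicate 1 or WT replicate 3), and Dok7 was -0.012 with library sizes alone. The difference between the medians of receptor subunits and of the other members, 0.79 (log2), moved by less than the spread between replicates (0.17) in every alternative. Genes called over all 13118 numbered 547, and 209 to 595 with a library left out (310 less WT replicate 3, 361 less WT replicate 2, and the lowest count less TRa_mKO replicate 2), 357 with the replicate block and 267 without the haemoglobin-rich libraries. Same-numbered libraries did not vary together (correlation of deviations -0.18, 0.00 and -0.01, and 0 of 6 libraries correlated best with their own number), so the replicate block was not taken as a pairing. It left 4 members higher, and Ache had an adjusted p of 0.0971. The causes of these shifts were not tested. Depth limits Chrnd, with 44 to 145 counts a library, and Chrng, whose log2 fold change of 2.66 exists only without a filter.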
